A study of Anolis sagrei with 10 samples.

Results

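The genes described here are those of bone morphogenetic protein (BMP) and transforming growth factor beta (TGF-beta) signalling, measured by RNA sequencing in limb buds of wild-type embryos of Anolis sagrei, the brown anole, a lizard. They were taken by symbol: the ligands BMP, GDF, TGFB and INHB followed by a number or letter, the receptors BMPR, ACVR and TGFBR, the SMAD proteins, the SMURF ubiquitin ligases, the ID genes and the latent TGF-beta binding proteins LTBP. The symbols come from the annotation in the authors' comparison table, whose identifiers have the form ENSACAG, the Ensembl prefix for the green anole, Anolis carolinensis, and not for the species sampled. Which genome the reads were aligned to is not given in the sources used here, and the part of sequence differences between the species in the counts was not tested. Of 25920 gene identifiers, 12476 had a symbol and 45 matched, and 43 of these had 10 or more counts in at least 5 libraries. The remaining 2, ACVR1C and BMP15, had 0 to 14 and 0 to 59 counts per library. ID1 and ID3 were not among the matched symbols and are not analysed here. The libraries were 5 of forelimb buds and 5 of hindlimb buds, all wild type and at stage 7, with replicate numbers 1 to 5 in each limb. No treatment or altered allele was involved. Per the labels' protocols limb buds were collected in pairs, and the labels do not say how many embryos a library holds or what a replicate number marks. P-values therefore measure the spread between these samples, which may in part be technical. In the main fit, which pairs the limbs by replicate number, this is the spread left within pairs.

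BMP and TGF-beta ligands are secreted dimers that bring together type I and type II receptor kinases at the cell surface. The activated type I receptor phosphorylates receptor SMADs, which join SMAD4 and enter the nucleus, while SMAD6, SMAD7 and the SMURF ligases damp the signal and ID genes are among its direct targets. In limb buds of mouse and chick, BMP ligands made by the ectodermal ridge and the mesenchyme act on outgrowth, digit identity and the death of interdigital cells, and BMP, GDF and TGF-beta ligands act on cartilage condensations and joints.

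Library totals ran from 41808148 to 54998469 counts. TBX5, the forelimb determinant, averaged 479 ± 67.3 CPM in forelimb and 1.82 ± 0.700 CPM in hindlimb (SD, n = 5 each). PITX1, a hindlimb determinant, ran from 0.154 to 0.550 CPM in forelimb and from 25.8 to 44.7 CPM in hindlimb, so every library matched its limb label. The limb mesenchyme markers MSX1, MSX2 and TWIST1 together gave 229 to 358 CPM in forelimb and 216 to 303 CPM in hindlimb. Forelimb replicate 1 and hindlimb replicate 4 stood apart. The first had 142 CPM of 5 summed blood genes, against 11.6 to 14.2 CPM in the other forelimb libraries and 5.98 to 24.3 CPM in hindlimb. Hindlimb replicate 4 had the fewest detected genes (17132), and it held the lowest value of all 10 libraries for 21 of the 43 pathway genes, against 21.8% of all genes tested. Of the 10 libraries it also had the highest summed ectoderm and ridge genes (628 CPM). Its summed cartilage precursor (573 CPM), endothelial (28.5 CPM) and neural crest and nerve genes (22.4 CPM) were the lowest. Its blood, muscle precursor and limb mesenchyme sums lay within the range of the other libraries. Limb differences of the 43 genes whose call changes without replicate 1 or replicate 4 are given with that value. In pooled tissue, fewer cells of a type and less RNA per cell cannot be told apart.

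The limbs were compared with edgeR's quasi-likelihood test over all 15595 genes tested, with the replicate number as a block, so that each forelimb library was set against the hindlimb library of the same number. A gene is called here at a Benjamini-Hochberg adjusted p under 0.05, and log2 fold changes are forelimb over hindlimb with their standard error (SE). Of the 43 pathway genes, 3 were called: BMP5 and LTBP2 were higher, and GDF5 lower, in forelimb. Across all genes tested, 1.33% were called (0.705% with more in forelimb and 0.628% with more in hindlimb). Before adjustment, 14 of the 43 genes had a p under 0.05, against 13.8% of all genes. Forelimb was higher in 5 of 5 pairs for 4 genes (7.78% of all genes) and lower in 5 of 5 pairs for 5 genes (7.07% of all genes). The median log2 fold change of the 43 was 0.03 and the median size 0.13, close to 0.00 and 0.14 over all genes tested. The limbs overlapped in all 43 genes, and they did not overlap in 1.19% of all genes.

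Fitted differences were larger among the ligands than among the receptors and the genes downstream of them. The 15 ligand genes had a median log2 fold change of 0.30 in size, against 0.14 over all genes tested, and 8 of them reached 0.30. The share of all genes that reached 0.30 was not taken. With a replicate number left out, BMP3 fell as far as 0.19, BMP4 as far as -0.24 and GDF6 as far as -0.16. The others of the 8 kept at least 0.30 in size. Of the 15 ligands 2 were called, against 1.33% of all genes, and 7 had an unadjusted p under 0.05, against 13.8%. The median size was 0.33 for the 9 BMP and BMP-like ligands and 0.18 for the 6 of the TGF-beta, activin and GDF11 type. The 23 genes for receptors, SMADs, SMURFs and ID proteins had a median of 0.08 in size and a largest of 0.23. None of the 23 was called by edgeR or by DESeq2 with the block, against 1.33% and 3.45% of all genes. An unadjusted p under 0.05 was found for 3, against 13.8% of all genes. The 4 LTBP genes, with a median size of 0.29, and BMP1, with 0.25, are in neither group. The contrast between the ligands and these 23 genes is a description and was not tested. The ligands include genes with lower counts and wider SE: GDF9 (0.99), INHBB (0.30), GDF6 (0.25) and BMP6 (0.22). Of the 8 that reached 0.30, INHBB and GDF6 are among these, while BMP2, BMP3, BMP4, BMP5, GDF5 and TGFB2 had SE of 0.06 to 0.12. The 23 other genes had SE of 0.06 to 0.18. The part of count depth in the contrast was not tested. Without the replicate block edgeR called 0 of the 43 genes and 0.199% of all genes, with an unadjusted p under 0.05 for 8 of the 43 and 3.95% of all genes. DESeq2 with the block called 8 of the 43 and 3.45% of all genes. Without replicate 1, edgeR with the block called 4 of the 43 (BMP1, BMP5, GDF5 and LTBP2) and 2.11% of all genes. Without replicate 4 it called 2 (GDF5 and TGFB2) and 0.617% of all genes.

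**Figure D1:**
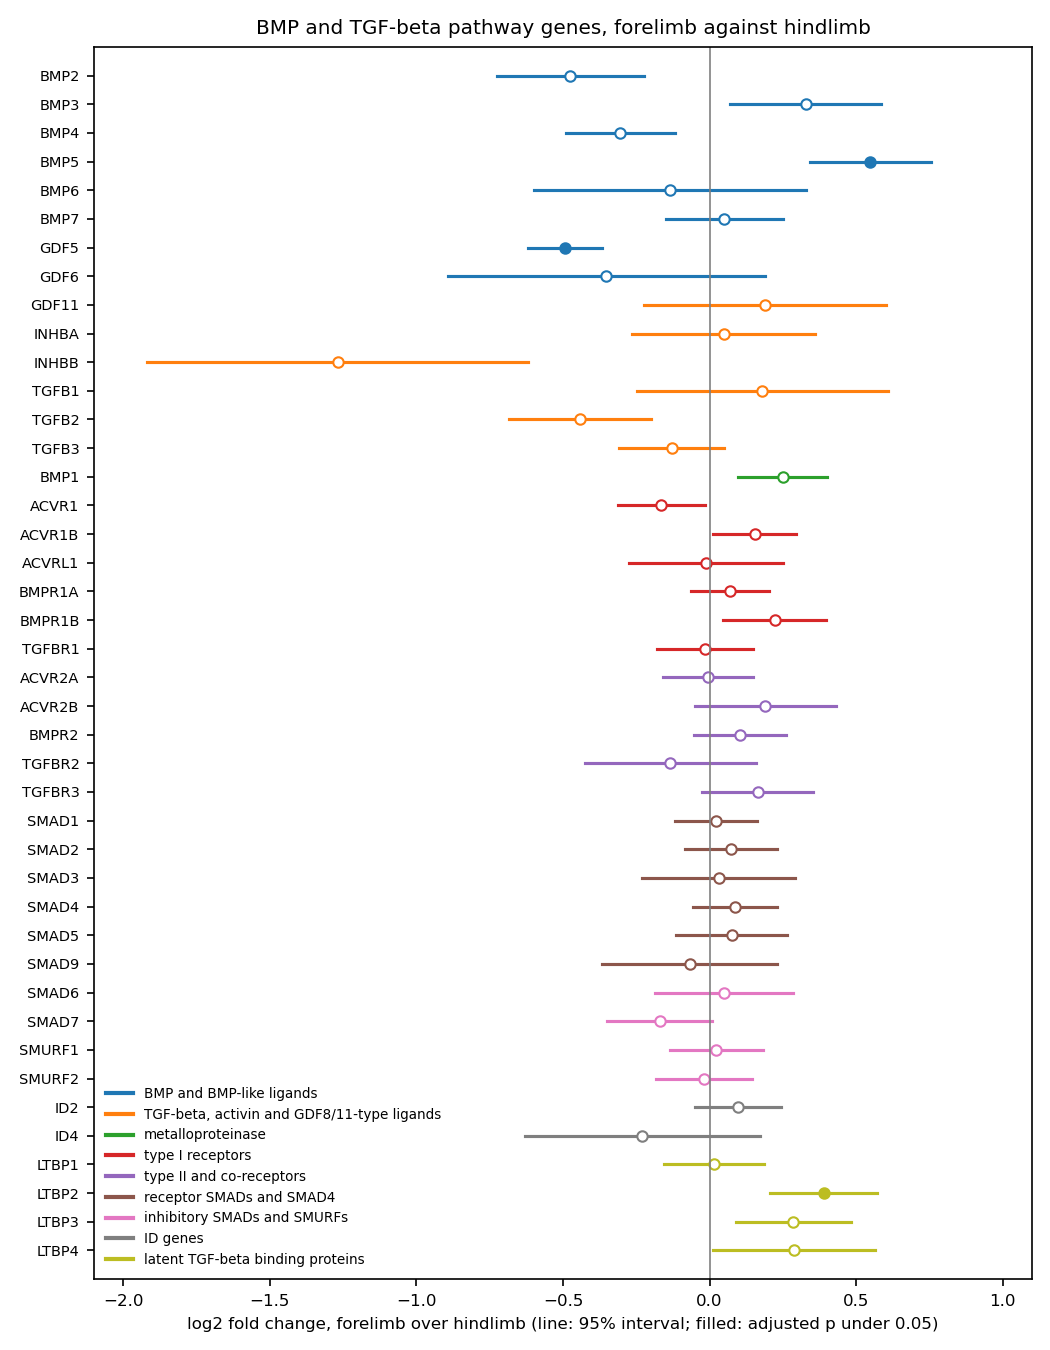
Log2 fold change of each gene, forelimb over hindlimb, from the edgeR fit with the replicate block (x axis); genes run down the page by role, lines are 95% intervals and filled points have an adjusted p under 0.05. GDF5 lies at -0.49 and BMP5 at 0.55, whereas receptors, SMADs, SMURFs and ID genes lie between -0.23 and 0.22; GDF9, with 1 to 34 counts per library, is left out.

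GDF5 (ENSACAG00000005716), a BMP-type ligand known from mouse for its part in joints and cartilage condensations, was lower in forelimb than in hindlimb in 5 of 5 pairs. It was at 159.7, 241, 305, 268 and 367 CPM in forelimb replicates 1 to 5 and at 229, 329, 429, 401 and 495 CPM in hindlimb replicates 1 to 5. Replicate 1 was lowest and replicate 5 highest in each limb, and the limbs overlapped. The means were 268 ± 76.9 CPM in forelimb and 376 ± 102 CPM in hindlimb (SD, n = 5 each), so the spread within a limb was wide. Within pairs the forelimb to hindlimb ratio was nearly constant: its log2 value ran from -0.58 to -0.43, a range of 0.15, the second narrowest among the 43 genes after BMPR1A. The fitted log2 fold change was -0.49 ± 0.06 (SE), a forelimb level of 0.71 times the hindlimb level (edgeR adjusted p 0.000696). GDF5 stayed called whichever replicate number was left out, with adjusted p from 0.00167 to 0.0142, and was not called without the block (adjusted p 1.0).

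Genes of cartilage precursors are given beside GDF5. The summed level of COL2A1, SOX5, SOX6 and SOX9 was 1201, 978, 1521, 947 and 889 CPM in forelimb replicates 1 to 5 and 1377, 1223, 1605, 573 and 1227 CPM in hindlimb replicates 1 to 5. It was lower in forelimb in 4 of 5 pairs, as GDF5 was, and higher in forelimb in replicate 4, where GDF5 was lower in forelimb. The hindlimb value of replicate 4 was the lowest of the 10 libraries. Of 6 listed markers these 4 had a symbol, and 0 of them were called. SOX9 alone had a log2 fold change of -0.04 ± 0.15 and was higher in forelimb in 2 of 5 pairs. The part of these genes in the GDF5 difference was not tested.

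BMP5 (ENSACAG00000016825), a ligand needed for normal skeletal elements in mouse, was higher in forelimb in 5 of 5 pairs. Its level was 28.1, 34.9, 45.2, 28.7 and 30.7 CPM in forelimb replicates 1 to 5 and 22.3, 21.8, 28.2, 18.3 and 23.3 CPM in hindlimb replicates 1 to 5. Replicate 3 was the highest in each limb, and its hindlimb value exceeded the lowest forelimb value. This came to a log2 fold change of 0.55 ± 0.10 (SE; edgeR adjusted p 0.0133). The call was lost without replicate 2 (0.10), replicate 3 (0.114) or replicate 4 (0.0656) and without the block (0.484), with a log2 fold change of 0.52 to 0.61 across these and all other alternatives.

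BMP2 and BMP4, ligands of the ridge and mesenchyme in mouse and chick limb buds, had lower values in forelimb but did not pass the threshold. BMP2 (ENSACAG00000003113) was at 18.3, 28.2, 40.8, 28.0 and 40.1 CPM in forelimb replicates 1 to 5 and at 36.5, 43.1, 45.3, 38.2 and 45.7 CPM in hindlimb replicates 1 to 5. Forelimb lay below hindlimb in 5 of 5 pairs, most of all in replicate 1, where the forelimb library also had the high blood genes. Its log2 fold change was -0.48 ± 0.12 (edgeR adjusted p 0.0648), and -0.34 (adjusted p 0.0900) without replicate 1. BMP4 (ENSACAG00000017900) was at 52.6, 55.7, 42.4, 38.6 and 43.6 CPM in forelimb and 68.5, 67.1, 53.5, 56.4 and 43.2 CPM in hindlimb replicates 1 to 5. It was lower in forelimb in 4 of 5 pairs, replicate 5 being nearly level, and its log2 fold change was -0.30 ± 0.09 (edgeR adjusted p 0.122). Without replicate 5 it was -0.38 (adjusted p 0.0410) and was called. Over the fits that left out each replicate number in turn, BMP4 ran from -0.38 to -0.24, with edgeR adjusted p from 0.0410 to 0.377. DESeq2 with the block called both genes, with adjusted p of 0.00666 and 0.0483. The summed level of 8 ectoderm and ridge genes (FGF8 among them) ran from 446 to 533 CPM in forelimb and from 398 to 628 CPM in hindlimb, higher in forelimb in 4 of 5 pairs, and its part in the BMP2 and BMP4 values was not tested.

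BMP3 (ENSACAG00000010162), which counteracts other BMP ligands, had higher forelimb values in 5 of 5 pairs without passing the threshold. Its level was 30.6, 26.5, 29.0, 33.6 and 25.0 CPM in forelimb and 24.2, 25.0, 25.2, 18.2 and 22.7 CPM in hindlimb replicates 1 to 5. The largest gap within a pair was in replicate 4. Its log2 fold change was 0.33 ± 0.12 (edgeR adjusted p 0.235), and 0.19 without replicate 4. BMP7 (ENSACAG00000016133), a further ridge and mesenchyme ligand, was at 32.3, 33.6, 35.1, 34.3 and 37.6 CPM in forelimb and 25.7, 31.5, 35.6, 38.9 and 36.7 CPM in hindlimb replicates 1 to 5. Forelimb was higher in 3 of 5 pairs, and the 95% interval of the log2 fold change was -0.15 to 0.25, which excludes a 1.5-fold difference in either direction. BMP6, a ligand linked to cartilage maturation, was at 3.16, 2.07, 4.25, 2.98 and 3.50 CPM in forelimb and 3.39, 2.33, 6.85, 2.77 and 3.05 CPM in hindlimb replicates 1 to 5. Its highest value was in hindlimb replicate 3, and the log2 fold change was -0.13 ± 0.22 (adjusted p 0.848). GDF6, a relative of GDF5 that also acts in joints, ran from 2.48 to 7.50 CPM in forelimb and from 4.44 to 5.84 CPM in hindlimb. Its log2 fold change was -0.35 ± 0.25 and its adjusted p 0.577, and the log2 fold change was -0.22 without replicate 1, -0.16 without replicate 4 and -0.62 without replicate 5. GDF9, an oocyte factor in mammals, had 1 to 34 counts per library and an interval of -2.24 to 2.05, which holds differences of over 2-fold in either direction.

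**Figure D2:**
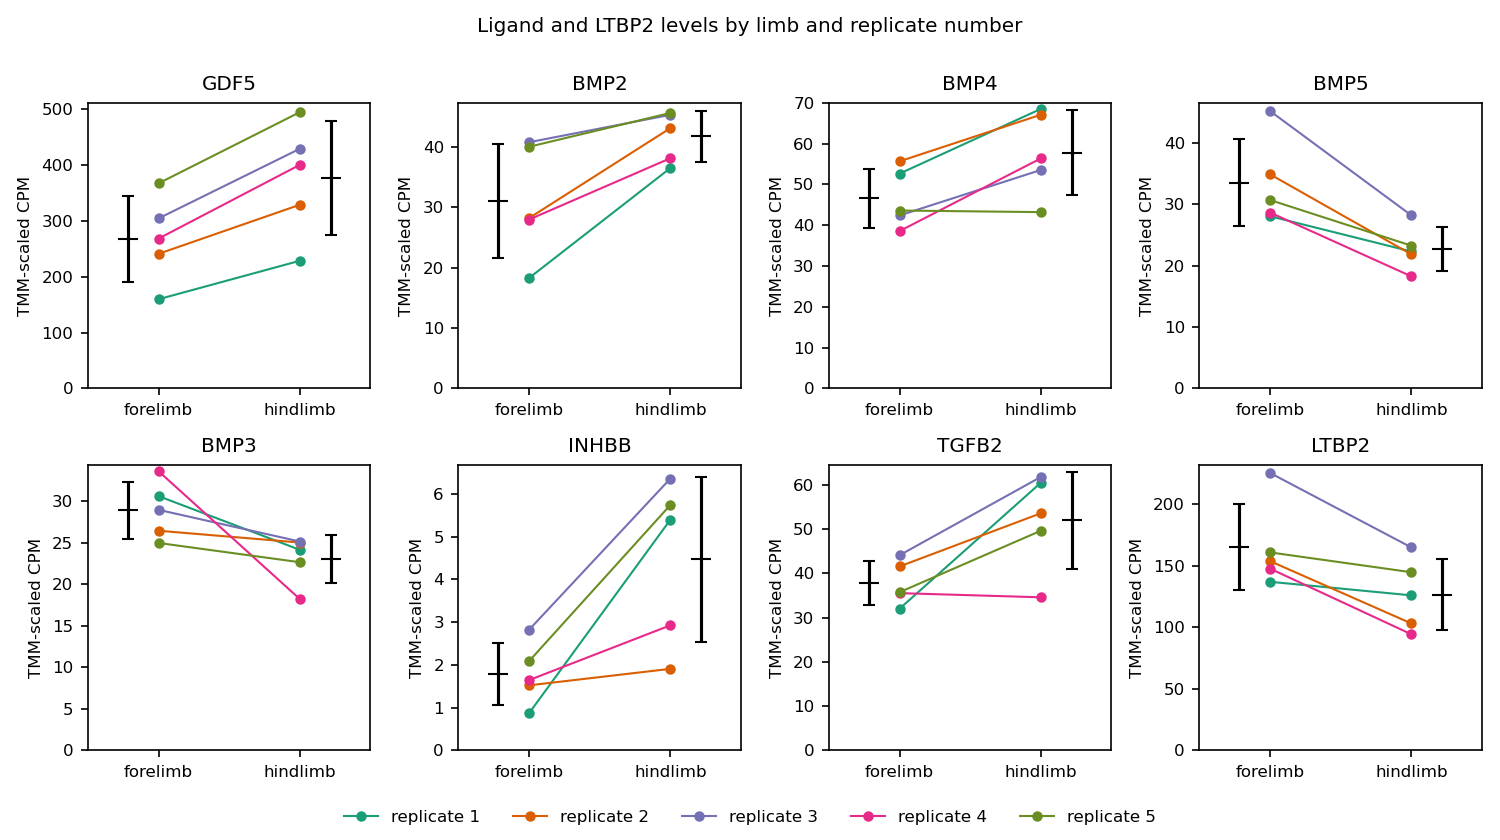
Level of 8 genes (TMM-scaled CPM, y axis from 0) in forelimb and hindlimb (x axis), one line per replicate number; black bars are mean and SD of 5 libraries. GDF5 is lower in forelimb in 5 of 5 pairs by a near-constant ratio and BMP5 is higher in forelimb in 5 of 5 pairs, although the limbs overlap in both.

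None of the 6 ligand genes of the TGF-beta, activin and GDF11 type was called by edgeR with the block, against 1.33% of all genes. An unadjusted p under 0.05 was found there for 2, against 13.8% of all genes. DESeq2, which called 3.45% of all genes, called those 2, INHBB and TGFB2. INHBB (ENSACAG00000004094), the beta B subunit of activins and inhibins, had the largest fitted difference of the 43 genes. It was at 0.871, 1.52, 2.82, 1.65 and 2.09 CPM in forelimb replicates 1 to 5 and 5.40, 1.91, 6.36, 2.93 and 5.74 CPM in hindlimb replicates 1 to 5. Forelimb was lower in 5 of 5 pairs, but the pairs varied widely, and the value of hindlimb replicate 2 lay within the forelimb range. The log2 ratio was -2.50 in replicate 1 and -1.42 to -0.31 in the other pairs. At a log2 fold change of -1.27 ± 0.30, INHBB had an edgeR adjusted p of 0.0599, which missed the threshold. With each replicate number left out, its log2 fold change ran from -1.49 to -0.95 and its edgeR adjusted p from 0.0703 to 0.226. TGFB2 (ENSACAG00000001183), a TGF-beta isoform active in mesenchyme, was at 32.0, 41.6, 44.1, 35.5 and 35.7 CPM in forelimb and 60.5, 53.6, 61.8, 34.6 and 49.6 CPM in hindlimb replicates 1 to 5. Replicate 4 was the single pair in which forelimb was not lower. Its log2 fold change was -0.44 ± 0.11 (edgeR adjusted p 0.0802), and without replicate 4 it was -0.56 (adjusted p 0.0461), past the threshold. Over the fits that left out each replicate number in turn, TGFB2 ran from -0.56 to -0.32, with edgeR adjusted p from 0.0461 to 0.306.

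TGFB3, TGFB1, INHBA (the beta A subunit of activins) and GDF11 (a ligand that patterns the trunk axis in mouse) had log2 fold changes between -0.13 and 0.19. TGFB3 averaged 99.2 ± 10.1 CPM in forelimb and 109 ± 14.5 CPM in hindlimb (SD, n = 5 each), and its log2 fold change was -0.13 ± 0.08. TGFB1 averaged 4.60 ± 1.12 and 4.03 ± 0.697 CPM, INHBA 9.97 ± 2.63 and 9.44 ± 1.35 CPM, and GDF11 7.65 ± 2.19 and 6.66 ± 1.54 CPM in forelimb and hindlimb. Without replicate 1 the log2 fold change was -0.05 for TGFB3, 0.32 for TGFB1, 0.13 for INHBA and 0.08 for GDF11, and without replicate 4 it was -0.21, 0.13, 0.10 and 0.05. Leaving out each replicate number in turn gave 0.09 to 0.32 for TGFB1, -0.05 to 0.13 for INHBA and 0.05 to 0.33 for GDF11. The intervals of these 4 genes, over all 5 pairs, reached from -0.31 at the lowest to 0.61 at the highest.

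The latent TGF-beta binding proteins are matrix proteins, most of which hold TGF-beta in an inactive store. All 4 had positive log2 fold changes and 1 was called, against 1.33% of all genes. LTBP2 (ENSACAG00000016494), the member that does not bind latent TGF-beta and sits on fibrillin microfibrils, was at 137, 154, 225, 148 and 161 CPM in forelimb replicates 1 to 5 and 126, 103, 165, 94.3 and 145 CPM in hindlimb replicates 1 to 5. Forelimb was higher in 5 of 5 pairs, and replicate 3 was the highest in each limb. This came to a log2 fold change of 0.39 ± 0.08 (SE; edgeR adjusted p 0.0397). The call was lost without replicate 2 (0.220), replicate 3 (0.208) or replicate 4 (0.169), with scaling by library totals only (0.0559) and without the block (1.0).

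LTBP3 was at 66.7, 83.6, 81.4, 73.2 and 73.1 CPM in forelimb and 67.0, 75.5, 70.4, 46.4 and 54.4 CPM in hindlimb replicates 1 to 5, with a log2 fold change of 0.29 ± 0.09 (edgeR adjusted p 0.177). LTBP4 was at 24.9, 22.9, 24.3, 19.9 and 20.8 CPM in forelimb and 25.3, 24.4, 18.8, 11.9 and 15.1 CPM in hindlimb replicates 1 to 5, with 0.29 ± 0.13 (edgeR adjusted p 0.336). In both genes replicates 4 and 5 gave the widest gaps between the limbs, and hindlimb replicate 4 was the lowest of the 10 libraries. Without replicate 4 the log2 fold change was 0.19 for LTBP3 and 0.18 for LTBP4. LTBP1 was at 515, 531, 683, 499.8 and 490.1 CPM in forelimb and 636, 521, 621, 405 and 521 CPM in hindlimb replicates 1 to 5, with a log2 fold change of 0.01 ± 0.08. Its pairs pointed both ways, with forelimb higher in 3 of 5, and the value turned negative without replicate 3 or replicate 4. BMP1 (ENSACAG00000010506), which despite its name is a metalloproteinase that matures procollagen and cleaves the BMP antagonist chordin, was at 139, 175, 174, 155 and 166 CPM in forelimb and 135, 152, 151, 113 and 132 CPM in hindlimb replicates 1 to 5. Forelimb was higher in 5 of 5 pairs, least in replicate 1. BMP1 had a log2 fold change of 0.25 ± 0.07 (edgeR adjusted p 0.119). It was called without replicate 1 (edgeR adjusted p 0.0460) and without the low-count filter (edgeR adjusted p 0.0391). DESeq2 with the block also called it (adjusted p 0.0479). Over the fits that left out each replicate number in turn, BMP1 ran from 0.20 to 0.31, with edgeR adjusted p from 0.0460 to 0.327.

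Of the 11 receptor genes 0 were called by edgeR or by DESeq2, against 1.33% and 3.45% of all genes. An unadjusted p under 0.05 was found for 3, all type I receptors, against 13.8% of all genes. BMPR1B (ENSACAG00000013701), the type I receptor of mouse and chick cartilage condensations that GDF5 prefers, was at 139, 117, 135, 111 and 110.3 CPM in forelimb and 109, 107, 114, 78.6 and 118 CPM in hindlimb replicates 1 to 5. Hindlimb replicate 4 was far below the other libraries, and forelimb was higher in 4 of 5 pairs. BMPR1B had a log2 fold change of 0.22 ± 0.08 (edgeR adjusted p 0.241). Over the fits that left out each replicate number in turn, it ran from 0.16 to 0.31, with edgeR adjusted p from 0.0778 to 0.596. ACVR1, a type I receptor for BMP ligands, was at 68.4, 76.1, 77.8, 76.1 and 86.9 CPM in forelimb and 79.0, 86.7, 79.2, 93.8 and 93.0 CPM in hindlimb replicates 1 to 5, with a log2 fold change of -0.16 ± 0.07 (edgeR adjusted p 0.307). Forelimb was lower in 5 of 5 pairs by small margins. ACVR1B, the activin type I receptor, was at 147, 117, 142, 115 and 113 CPM in forelimb and 122, 106, 125, 99.3 and 115 CPM in hindlimb replicates 1 to 5, with 0.15 ± 0.07 (edgeR adjusted p 0.321). TGFBR1, the TGF-beta type I receptor, was at 304, 237, 224, 211 and 218 CPM in forelimb and 257, 241, 229.5, 204 and 272 CPM in hindlimb replicates 1 to 5, with -0.02 ± 0.08. Forelimb replicate 1 was its highest library.

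BMPR1A, a main BMP type I receptor of limb mesenchyme and ridge in mouse, averaged 113 ± 9.38 CPM in forelimb and 108 ± 11.6 CPM in hindlimb (SD, n = 5 each). Its pair ratios had the narrowest range of the 43 genes, from -0.01 to 0.12 on the log2 scale, and a fitted interval of -0.06 to 0.20. ACVRL1, mainly a receptor of endothelial cells, averaged 11.9 ± 1.67 and 11.9 ± 1.15 CPM in forelimb and hindlimb. Among type II receptors, the BMP receptor BMPR2 averaged 137 ± 22.2 and 129 ± 29.0 CPM, and the activin receptors ACVR2A and ACVR2B averaged 306 ± 35.4 and 306 ± 25.0 CPM and 27.0 ± 7.99 and 23.5 ± 6.37 CPM in forelimb and hindlimb. TGFBR2, the TGF-beta type II receptor, averaged 150.2 ± 44.6 and 162 ± 31.5 CPM, and the co-receptor TGFBR3 averaged 44.5 ± 3.69 and 39.9 ± 4.51 CPM. The intervals of these 5 type II and co-receptor genes lay within -0.43 and 0.43, so each excluded a 1.5-fold difference between the limbs. That bound rests on the spread within pairs. Without replicate 4 the log2 fold change of ACVR2B was 0.10 in place of 0.19 and that of BMPR2 0.03 in place of 0.10. Without replicate 1 that of TGFBR2 was 0.05 in place of -0.13 and that of TGFBR3 0.25 in place of 0.16.

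The receptor SMADs of the BMP branch (SMAD1, SMAD5 and SMAD9), those of the TGF-beta and activin branch (SMAD2 and SMAD3) and the shared SMAD4 had log2 fold changes of 0.02, 0.08, -0.07, 0.07, 0.03 and 0.09. None of the 6 was called by edgeR or by DESeq2, against 1.33% and 3.45% of all genes. An unadjusted p under 0.05 was found for 0, against 13.8% of all genes. The intervals of these 6 genes lay within -0.37 and 0.29. SMAD4 averaged 128 ± 12.4 CPM in forelimb and 120.5 ± 5.89 CPM in hindlimb (SD, n = 5 each). SMAD3 varied widely among libraries, at 23.0 to 37.8 CPM in forelimb and 18.5 to 45.2 CPM in hindlimb. SMAD7, an inhibitory SMAD of both branches, was at 37.1, 32.3, 37.2, 34.3 and 33.3 CPM in forelimb and 38.3, 40.3, 42.2, 35.9 and 39.1 CPM in hindlimb replicates 1 to 5. Forelimb was lower in 5 of 5 pairs, with a log2 fold change of -0.17 ± 0.08 (edgeR adjusted p 0.387). SMAD6, the inhibitory SMAD of the BMP branch, was at 21.8, 20.8, 23.5, 18.4 and 21.9 CPM in forelimb and 24.2, 24.0, 21.7, 15.7 and 18.2 CPM in hindlimb replicates 1 to 5, with 0.05 ± 0.11 (edgeR adjusted p 0.891). The limbs overlapped widely. The ubiquitin ligases SMURF1 and SMURF2, which mark receptors and SMADs for breakdown, had log2 fold changes of 0.02 ± 0.07 and -0.02 ± 0.08.

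ID genes encode helix-loop-helix proteins that block other transcription factors and are direct BMP targets in many cell types. ID2 was at 160.2, 158, 169.8, 149 and 171 CPM in forelimb replicates 1 to 5 and 157, 165, 156, 119 and 162 CPM in hindlimb replicates 1 to 5. Apart from hindlimb replicate 4, which was low, the libraries of both limbs lay in the same range. ID2 had a log2 fold change of 0.10 ± 0.07 with an interval of -0.05 to 0.24. ID4 averaged 13.4 ± 3.04 CPM in forelimb and 15.7 ± 3.45 CPM in hindlimb (SD, n = 5 each), with a log2 fold change of -0.23 ± 0.18. Without replicate 1 ID4 was at -0.09, and without replicate 4 ID2 was at 0.04. Neither was called by edgeR or DESeq2, against 1.33% and 3.45% of all genes. Neither had an unadjusted p under 0.05, against 13.8% of all genes.

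The variation of log2(CPM + 0.1) was divided into a part between limbs (1 of 9 degrees of freedom), a part between replicate numbers (4 of 9) and the rest. Variation spread evenly over the degrees of freedom would give 44.4% to the numbers and 11.1% to the limbs. The part between numbers had a median of 60.5% over the 43 genes and 66.0% over all genes tested, and the part between limbs had 11.6% and 5.52%. The numbers held more than the limbs in 36 of the 43 genes and in 93.6% of all genes. Per degree of freedom they held more in 23 of the 43 genes and in 72.8% of all genes. On the undivided shares BMP5, BMP3, INHBB, TGFB2, BMP1, SMAD7 and ID4 were the 7 exceptions. For GDF5 the numbers held 71.5%, the limbs 28.2% and the rest 0.318%.

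**Figure D3:**
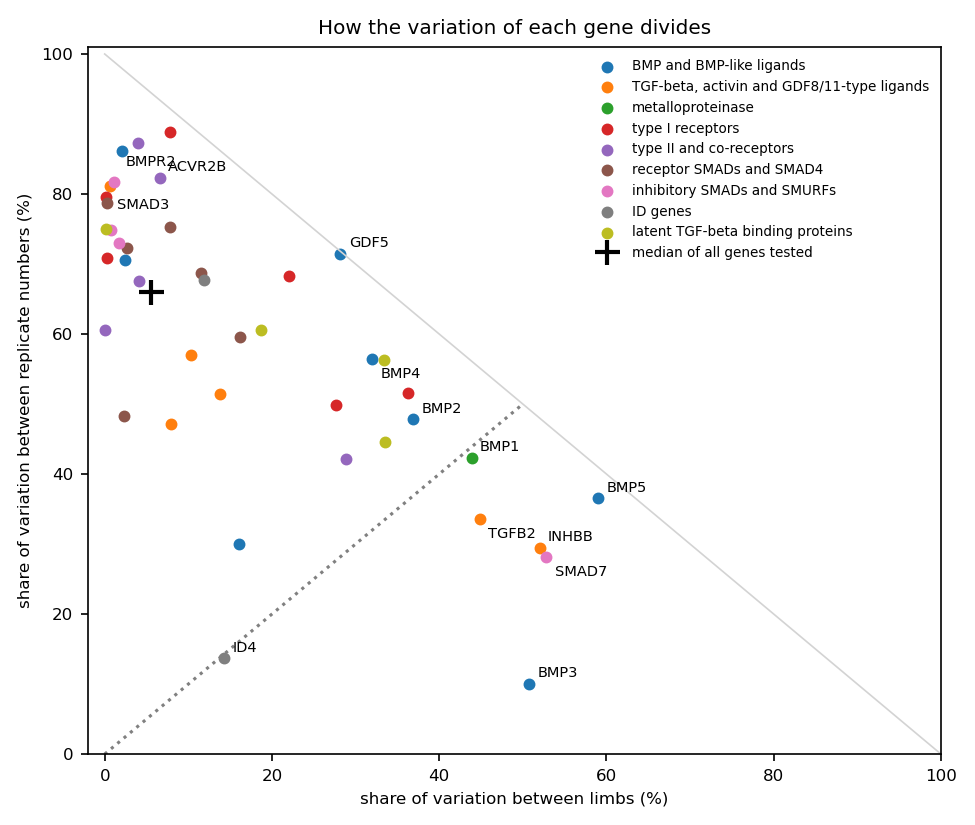
Share of each gene's variation between limbs (x axis, %) and between replicate numbers (y axis, %), coloured by role, GDF9 left out; the pale line marks a total of 100% and the dotted line equal shares. GDF5 lies close to the pale line at 28.2% and 71.5%, BMP5, BMP3, INHBB, TGFB2, SMAD7, BMP1 and ID4 lie below the dotted line, and the cross is the median of all genes tested.

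A joint edgeR test of the 4 replicate number terms, with limb in the model, called 9 of the 43 genes, against 25.8% of all genes. They were the ligands GDF5, BMP2, BMP4 and BMP5, the type II receptors ACVR2B and BMPR2, SMAD3, LTBP1 and LTBP2. GDF5 had the smallest edgeR adjusted p (6.88e-05), and its mean over both limbs was lowest in replicate 1 (194 CPM) and highest in replicate 5 (431 CPM), a 2.22-fold span. ACVR2B was at 36.5 CPM in replicate 1 and 18.6 CPM in replicate 5 (edgeR adjusted p 0.00919), BMPR2 at 172 CPM in replicate 1 and 103.9 CPM in replicate 4 (0.00578), and SMAD3 at 41.5 CPM in replicate 1 and 23.7 CPM in replicate 5 (0.0252). Replicate 1, with the lowest GDF5, thus had the highest ACVR2B, BMPR2 and SMAD3. LTBP2 and BMP5 were highest in replicate 3 and lowest in replicate 4. GDF5 alone of the 9 was called whichever replicate number was left out. ACVR2B, BMPR2 and SMAD3 lost their calls without replicate 1, and LTBP2 lost its call without replicate 3. BMP5 and LTBP1 lost theirs without replicate 2, 3 or 4, BMP4 without replicate 1, 2 or 3, and BMP2 without replicate 1, 2, 3 or 4. Without replicate 1, BMP6, INHBB, LTBP3, TGFB2 and TGFBR2 were called instead. The count was then again 9 of the 43 genes, against 21.7% of all genes. What differs between the numbers is not given by the labels. Blood genes were highest in replicate 1 in each limb, with 142 CPM in forelimb and 24.3 CPM in hindlimb, and their part was not tested.

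**Figure D4:**
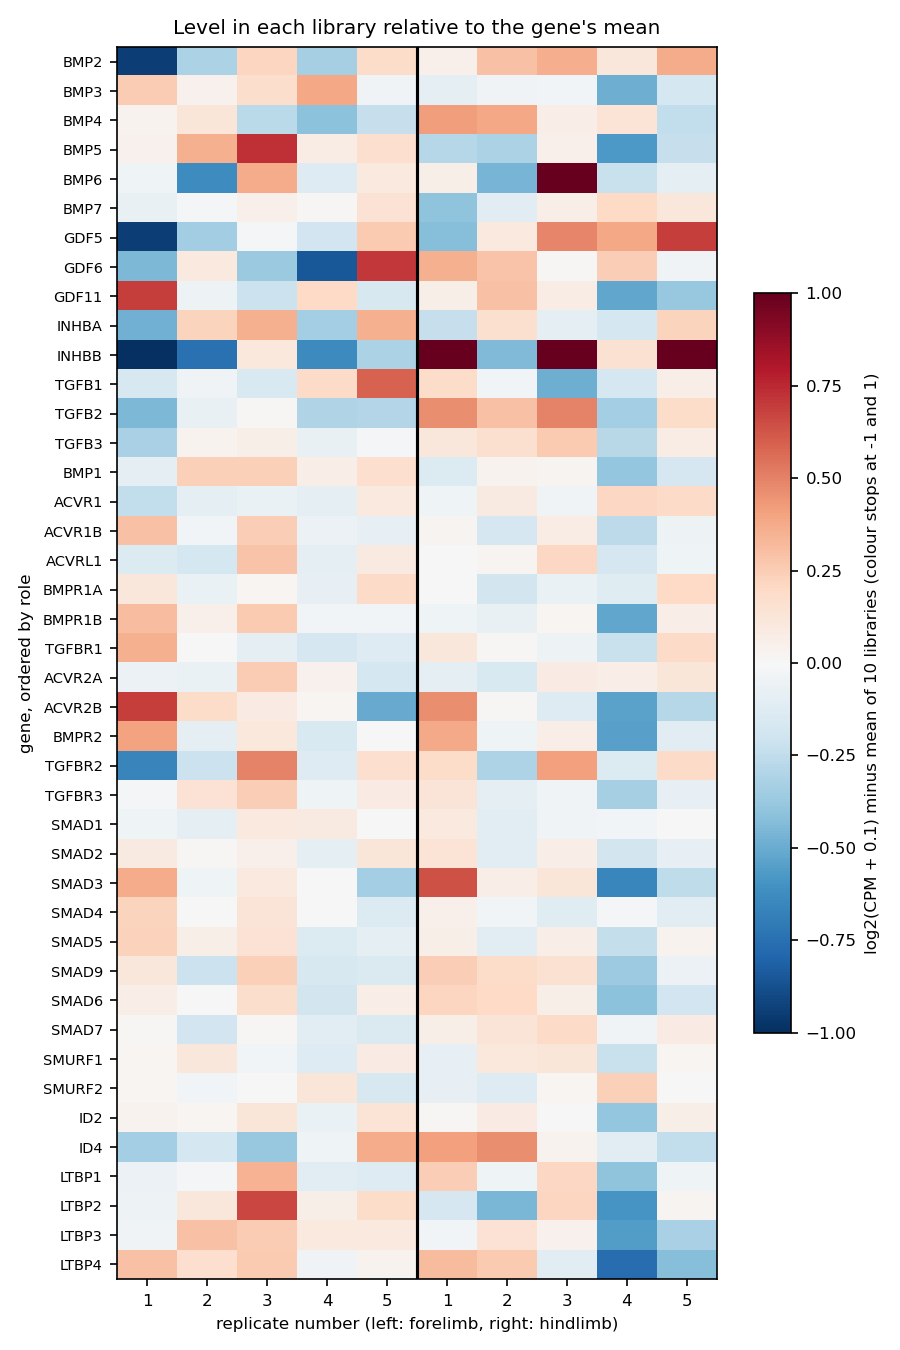
Level of each gene in each library relative to the gene's mean over 10 libraries, on the log2(CPM + 0.1) scale (colour, red higher); rows are genes by role without GDF9, columns are forelimb replicates 1 to 5 on the left and hindlimb replicates 1 to 5 on the right. Hindlimb replicate 4 is pale to dark blue in most rows, and in both limbs replicate 1 is the lowest for GDF5 and the highest for BMPR2 and ACVR2B.

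Other genes of the pathway were taken from 5 lists. Of 28 symbols of BMP antagonists and extracellular modulators 19 genes were tested. Of these, edgeR with the block called 1 with more and 2 with less in forelimb, against 0.705% and 0.628% of all genes. CHRD (chordin), a secreted BMP antagonist, was higher in forelimb, at 6.69 to 14.5 CPM in forelimb and 2.16 to 4.87 CPM in hindlimb; its difference was 1.64 ± 0.19 on the log2 scale (edgeR adjusted p 0.000575). Those lower in forelimb were TLL1, a tolloid-type protease that cleaves chordin, at -0.62 ± 0.09 (edgeR adjusted p 0.00260), and WFIKKN2, which binds GDF11, at -0.67 ± 0.15 (0.0434). TLL1 ran from 32.1 to 54.0 CPM in forelimb and from 53.7 to 74.3 CPM in hindlimb. WFIKKN2 ran from 4.81 to 7.72 CPM in forelimb and from 7.55 to 10.6 CPM in hindlimb, and it lost its call whichever replicate number was left out. The median of the list was -0.08.

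Among 18 symbols of ligands, receptors and co-receptors with other names, 9 genes were tested and 1 was called, against 1.33% of all genes. It was TMEM100, a membrane protein induced downstream of ACVRL1 in mouse endothelium, at 12.7 to 20.1 CPM in forelimb and 21.0 to 35.6 CPM in hindlimb. The limbs did not overlap, and TMEM100 had a log2 fold change of -0.65 ± 0.10 (edgeR adjusted p 0.00669), a call that was lost without replicate 2 (0.0508) or replicate 3 (0.0609). The summed level of 5 endothelial genes ran from 38.8 to 64.8 CPM in forelimb and from 28.5 to 62.5 CPM in hindlimb, higher in forelimb in 4 of 5 pairs, and its part was not tested. RGMA, a BMP co-receptor, had 0.33 ± 0.08 (edgeR adjusted p 0.0603). The median of this list was 0.08. The list is broader than its name, since TMEM100 and the receptor tyrosine kinase ALK are not ligands, receptors or co-receptors of this family.

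Of 29 symbols of SMAD corepressors and partners 26 genes were tested and 1 was called, against 1.33% of all genes. WWP2, a ubiquitin ligase of the same family as the SMURFs, was at 120.4 to 157 CPM in forelimb and 162 to 216 CPM in hindlimb, without overlap, with a log2 fold change of -0.49 ± 0.06 (edgeR adjusted p 0.00183). It stayed called whichever replicate number was left out. EP300, an acetyltransferase that acts with SMADs, had 0.29 ± 0.08 (edgeR adjusted p 0.0884). The median of this list was 0.04.

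Of 23 BMP response symbols 16 genes were tested and 0 were called by edgeR or DESeq2, against 1.33% and 3.45% of all genes. An unadjusted p under 0.05 was found for 3, where 13.8% of all genes had one. The smallest p belonged to MSX2, a homeobox target of BMP signalling (0.27 ± 0.08, adjusted p 0.143), and to KDR, which is also an endothelial marker (0.36 ± 0.13, 0.254). The median was 0.10. Of 26 TGF-beta response symbols 19 genes were tested and 2 were called, against 1.33% of all genes. Both were higher in forelimb in 5 of 5 pairs. Of the 19, 10 had an unadjusted p under 0.05, where 13.8% of all genes had one, and they did not all have the same sign. POSTN (-0.51 ± 0.13, edgeR adjusted p 0.119), COL3A1 (-0.27 ± 0.10, 0.265) and SKIL (-0.23 ± 0.07, 0.135), named after their values were seen, had lower forelimb values. COL1A1, a chain of type I collagen, averaged 1147 ± 179 CPM in forelimb and 870.5 ± 201 CPM in hindlimb (SD, n = 5 each), with 0.42 ± 0.08 (edgeR adjusted p 0.0170). CTGF, a matricellular protein, averaged 75.6 ± 13.9 and 54.6 ± 13.4 CPM, with 0.49 ± 0.10 (0.0397). The median was 0.01. Without replicates 2, 3 or 4 in turn COL1A1 and CTGF lost their calls, as LTBP2 did. Of the 7 genes called in these lists, CHRD alone was also called without the block.

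In the authors' deposited table, adjusted p-values were given for 42 of the 43 genes and 0 of these were under 0.05, against 0.621% of all genes with one. Before adjustment 8 of the 43 were under 0.05 in the authors' deposited table, against 3.52% of all genes with a p-value there. Whether its fold changes were shrunken is not given in the sources used here. They were 4.84 for TBX5 and -3.19 for PITX1, against 8.06 and -6.79 in the block fit. For GDF5 the authors' deposited table gave a log2 fold change of -0.30 ± 0.14 (adjusted p 0.907), for BMP5 0.42 ± 0.13 (0.112), for INHBB -0.50 ± 0.14 (0.0673) and for LTBP2 0.28 ± 0.13 (0.956). The sign in the authors' deposited table matched that of the block fit in 42 of 43 genes, the exception being SMAD3, and the size was smaller there in 42 of 43. SMAD3 was at -0.0053 in the authors' deposited table and at -0.011 in the edgeR fit without the block. That fit also called 0 of the 43 genes and had 8 with an unadjusted p under 0.05.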

How the data were processed

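Polyadenylated RNA of forelimb and hindlimb buds was sequenced with a stranded kit, per the labels' protocols. FastQC, STAR, featureCounts and DESeq2 were used, per the submitters' processing notes. Versions, genome build, annotation, strand setting and treatment of shared reads are not given in the sources used here, so counts of overlapping or near-identical genes are uncertain. The deposited tables hold raw counts per gene identifier, 1 table per library. The authors' deposited comparison table holds a mean normalised signal, a log2 fold change and its standard error, a test score, p-values and gene symbols, per the file headers. Gene lengths were not used, so levels are not compared between genes.

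Counts were analysed in R 4.3.3 with edgeR 4.0.16: TMM scaling (factors 0.928 to 1.03), its default low-count filter (10 per library, 15 in all), robust quasi-likelihood fits and Benjamini-Hochberg adjustment over 15595 genes. All 43 genes passed the filter. Levels are CPM, counts scaled by library total and TMM factor. In the edgeR fits the SE was derived as the size of the log2 fold change over the square root of the quasi-likelihood F. The 95% intervals took a t quantile times this SE. Alternatives used limma 3.58.1, DESeq2 1.42.0, other scalings and filters, no block, and each replicate number left out. The fits were tested on simulated data. The spread between libraries and the library totals of 41808148 to 54998469 counts both bear on the precision.

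The replicate number was used as a block because the comparison was to be paired by number. As a check, deviations from the limb means over 9747 genes with at least 8 CPM correlated at 0.50 to 0.76 between libraries of the same number and at -0.40 to 0.13 between others. Deviations cancel out within each limb, so positive values for the same number draw the others towards negative ones. Part of this contrast is therefore fixed by the centring. The common biological coefficient of variation was 0.193 with the block and 0.313 without. The pairing rests on these values and not on a stated source of the numbers.

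The genes and lists were chosen with earlier results of these data known. Values per library are given for genes called with or without the block, those with an unadjusted p under 0.05, those with the same direction in 5 of 5 pairs and an absolute log2 fold change of 0.3 or more, BMP2, BMP4, BMP7, GDF5, BMPR1B, TGFB2, SMAD6, SMAD7 and ID2, and genes in which 1 library stood apart. Of listed pathway genes, called ones and the 2 with the smallest p are named. The lists share SKIL and RUNX2. Marker lists of muscle precursors and of neural crest and nerve were also summed: they gave 252 to 400 and 38.8 to 54.6 CPM in forelimb and 311 to 405 and 22.4 to 57.7 CPM in hindlimb.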

Additional observations from a re-analysis of the deposited data

Results flagged for a closer look

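Within each limb, the most extreme of the 5 libraries was compared with its nearest neighbour for each of the 43 genes, giving 86 sets. In 6 of them the gap was larger than 0.71 of the limb's range, the limit by Dixon's test, and chance alone gives about 1 in 20. BMP6 reached 6.85 CPM in hindlimb replicate 3, with the other 4 between 2.33 and 3.39 CPM. Hindlimb replicate 4 was low in BMPR1B, with 78.6 CPM against 107 to 118 CPM, and in ID2, with 119 CPM against 156 to 165 CPM. Forelimb replicate 3 was high in LTBP1, with 683 CPM against 490.1 to 531 CPM, and in LTBP2, with 225 CPM against 137 to 161 CPM. TGFBR1 reached 304 CPM in forelimb replicate 1, with the other 4 between 211 and 237 CPM.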

How the results depend on the processing

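GDF5 was called under 11 of the 12 alternatives, all but the one without the block; BMP5 was called under 8 and LTBP2 under 7. Without the replicate block, 31 genes were called in all (16 with more in forelimb and 15 with more in hindlimb) and 0 of the 43 pathway genes (0 and 0), as well as 1 antagonist and 0 genes each among the ligands and co-receptors with other names, the SMAD partners and the TGF-beta response genes. Without a filter on low counts 22981 genes were tested, and 697 of them, or 3.03%, were called (409 and 288). Of the 43 pathway genes 9 were called (4 and 5), with 2 ligands and co-receptors with other names, 3 SMAD partners, 1 BMP response gene and 8 TGF-beta response genes. DESeq2 with the block called 538 (304 and 234) and 8 (3 and 5), with 2 ligands and co-receptors with other names, 2 SMAD partners and 6 TGF-beta response genes. With limma voom 271 genes were called in all, 1.74% of those tested. Of the pathway genes called, 2 were higher in forelimb and 2 in hindlimb. With library totals only, 157 genes were called in all, 1.01% of those tested. Of the pathway genes called, 1 was higher in forelimb and 1 in hindlimb, and 1 TGF-beta response gene was called. When each replicate number was left out in turn, 58 to 330 genes were called in all (30 to 207 with more in forelimb and 28 to 123 with more in hindlimb). This was 0.37% to 2.11% of the genes tested. Called in these fits were 1 to 4 of the pathway genes (0 to 3 and 1 to 2), 0 to 2 ligands and co-receptors with other names and 0 to 3 TGF-beta response genes. The test of replicate numbers then called 4 to 13 pathway genes, against 16.5% to 27.6% of all genes. Across the scalings the median log2 fold change of all genes moved by at most 0.02.

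Of 515 values of the 43 genes under the alternatives, 464 kept direction and side of the threshold, 15 passed it, 10 lost it and 26 changed sign, none of the 26 in a called gene. With library totals only, the log2 fold change was 0.014 for ACVR2A, 0.0079 for ACVRL1, 0.00042 for SMURF2 and 0.0032 for TGFBR1. SMAD3 was at -0.011 without the block, and GDF9 at 0.031 without a filter and 0.079 with DESeq2. With each replicate number left out, the ranges were -0.045 to 0.073 for ACVR2A, -0.042 to 0.042 for ACVRL1, -0.21 to 0.014 for BMP6, -0.013 to 0.11 for BMP7, -0.72 to 0.65 for GDF9, -0.048 to 0.13 for INHBA, -0.057 to 0.10 for LTBP1, -0.0024 to 0.070 for SMAD1, -0.12 to 0.11 for SMAD3, -0.13 to 0.022 for SMAD9, -0.044 to 0.021 for SMURF2, -0.074 to 0.064 for TGFBR1 and -0.19 to 0.047 for TGFBR2. The cause of these changes was not tested. With 5 libraries a limb, the 95% interval lay within a 1.5-fold difference for 31 of the 43 genes and within 2-fold for 41, and GDF9 is limited by its depth.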
